A study of Rhodotorula toruloides with 36 samples.

Results

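Of the 8490 genes in the catalogue of Rhodotorula toruloides strain IFO0880, 34 had at least 1.5 times as much transcript in cultures given acetate as in cultures without it, in both nitrogen media and at all 3 times sampled. The members were chosen by their measured values. Reads per gene were expressed as TMM-CPM, a share of the library (CPM) after scaling by edgeR's trimmed mean of M-values, and averaged over the 3 replicates of a group. A gene was a member if its mean plus 1 was at least 1.5 times as high with acetate as without in all 6 pairs of groups, which are low and high nitrogen at 48, 64 and 88 h. The acetate ratios below are therefore a description of the selection and carry no test. CPM is a share of a library, so less RNA per cell and fewer cells of a kind cannot be told apart.

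R. toruloides is an oleaginous red yeast that stores much of its carbon as triacylglycerol when nitrogen runs short. Yeasts use acetate by joining it to coenzyme A. The acetyl-CoA formed feeds the tricarboxylic acid cycle, the glyoxylate cycle, which spares its carbon for gluconeogenesis, and lipid synthesis. Genes for acetate uptake, acetyl-CoA synthesis, the glyoxylate cycle and gluconeogenesis are commonly induced in yeasts that grow on acetate. None of the members could be assigned to these pathways. The deposited files give each gene only an mRNA number and a protein number, and 0 of the 8490 genes could be matched to the available gene table, which belongs to strain NP11. The 47 symbols of 4 lists (acetate use, xylose use, lipid storage and peroxisomal fatty acid oxidation) matched 0 genes for the same reason. Members are therefore named by mRNA number, protein number and position on assembly version 4 of the strain, and no marker of the strain or of a metabolic state could be checked.

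All 36 libraries came from IFO0880, with 3 biological replicates in each of 12 groups. The inoculum was grown from 3 colonies on glucose, and the cells of each were washed and divided between 4 flasks. Low-nitrogen medium held 0.1 g/L ammonium sulfate, and high-nitrogen medium held 5 g/L by the treatment protocol but 10 g/L by the series' design text. That text also gives 0.75 g/L yeast extract for the low-nitrogen medium, so the media may differ in more than ammonium. Acetate was added at 2 g/L or left out, and the carbon source of the sampled cultures is not stated in the labels beyond the mention of xylose in the series title.

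Library totals ran from 10173719 to 63311529 counts, and 3 counts, the floor used here, corresponded to between 0.0488 and 0.397 TMM-CPM. All 34 members passed edgeR's filter on low counts, as did 8314 of the 8490 genes. A few libraries differed from their group, 1 in each of 4 groups. These were replicate 2 of high nitrogen without acetate at 64 h and at 88 h, replicate 3 of high nitrogen with acetate at 48 h, and replicate 1 of low nitrogen without acetate at 64 h. Without these 4 libraries 30 of the 34 genes still met the rule. The 4 that did not were mRNA_546, mRNA_1446, mRNA_4100 and mRNA_6878, whose smallest ratios lay between 1.52 and 1.56. With library totals alone in place of TMM, 21 genes met the rule and 20 of them were members.

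The number of genes passing the ratio of 1.5 shrank steadily with the number of pairs required. It was passed in at least 1 pair by 3801 genes, in at least 3 by 989, in at least 5 by 137 and in all 6 by 34, which is 0.4% of the catalogue. In single pairs the background share of genes at 1.5 or more was 8.9%, 8.46% and 10.9% in low nitrogen at 48, 64 and 88 h. In high nitrogen it was 19.1%, 17.3% and 22%. Another 103 genes passed in exactly 5 pairs, and 43 of these missed in high nitrogen at 88 h, more than in any other pair. In all 34 members the lowest acetate library lay above the highest library without acetate in each of the 6 pairs, which held for 2.11% of all genes. These are the values that chose the members, so nothing is read from that count.

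Among the members the ratio spanned a wide range. The geometric mean over the 6 pairs ran from 1.86 to 13.4, with a median of 3.66. The median member ratio was 3.03, 3.19 and 2.56 in low nitrogen at 48, 64 and 88 h, and 4.19, 5.11 and 2.25 in high nitrogen. The median over all genes was between 0.982 and 1.00 in every pair. The ratio was at least 2 in all pairs for 13 members and at least 3 in all pairs for 6.

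**Figure D1:**
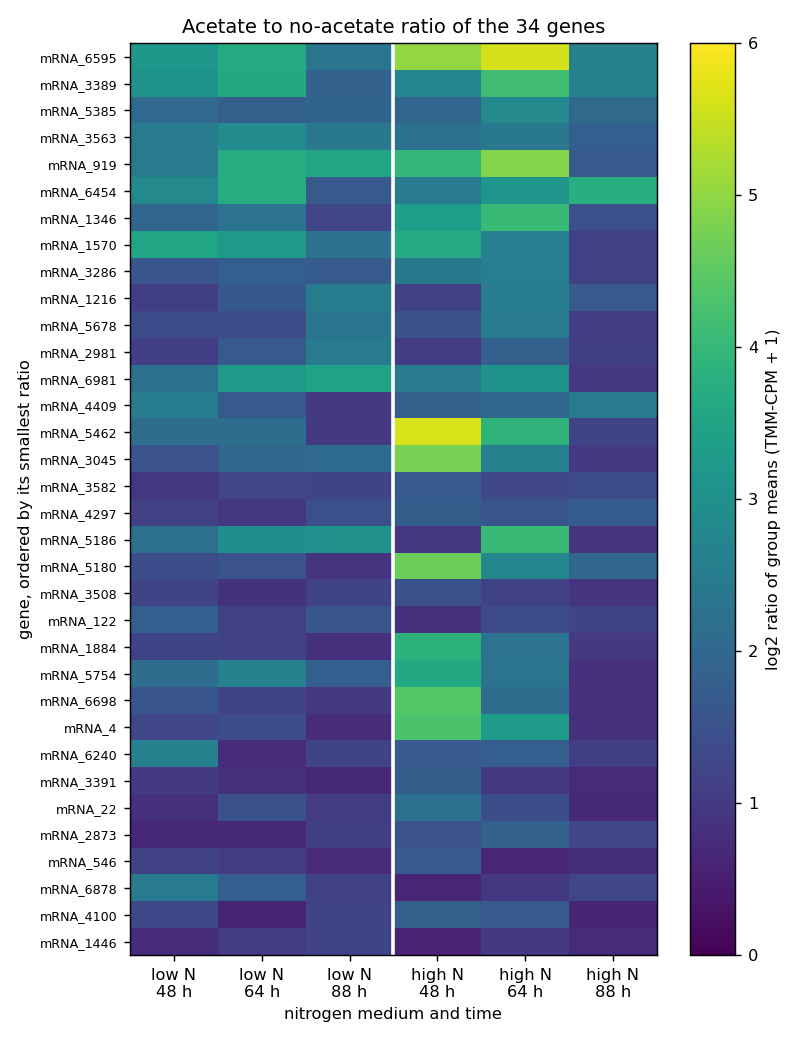
Each row of the heat map is 1 of the 34 genes, ordered by its smallest ratio, each column is a nitrogen medium and time, and colour gives the log2 ratio of acetate to no-acetate group means (TMM-CPM plus 1). The strongest colours lie in high nitrogen at 48 and 64 h, where ratios reach 50.1 and 49.2, while the highest ratio in high nitrogen at 88 h is 13.8.

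The gene with the highest smallest ratio was mRNA_6595 (protein 14963; scaffold 6, 1186117 to 1188115, minus strand; 7 exons). In low nitrogen its level without acetate was 8.11, 7.78 and 7.53 TMM-CPM at 48 h, and 77.4, 78.5 and 82.2 with acetate. At 64 h it was 8.63, 13.9 and 9.68 without and 176, 154 and 119 with acetate, and at 88 h 17.9, 17.1 and 14.0 without and 74.5, 82.7 and 101 with it. The acetate libraries were several times above those without acetate at each time, and the level without acetate was highest at 88 h. High-nitrogen libraries without acetate stayed low, at 4.20, 4.14 and 7.26 after 48 h, 2.54, 5.27 and 3.13 after 64 h and 4.30, 7.00 and 3.63 after 88 h. With acetate they reached 215, 199.8 and 186 after 48 h, 283, 179.5 and 219 after 64 h and 34.8, 37.7 and 34.7 after 88 h. The ratio of means plus 1 was thus 32.5, 49.2 and 6.15 in high nitrogen and 9.13, 12.8 and 5.03 in low nitrogen. It was the only member at 5 or more in every pair. The order of smallest ratios depends on the constant added to the means. The smallest ratio of mRNA_1346 was in low nitrogen at 88 h, from means of 0.251 TMM-CPM without and 1.97 with acetate. That is a larger rise in proportion than the smallest of mRNA_6595, but the mean without acetate rests on 26 counts.

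mRNA_3389 (protein 11757; scaffold 17, 561833 to 564101, plus strand) had the next highest smallest ratio, 3.63. Its low-nitrogen level was 3.05, 3.32 and 2.98 TMM-CPM without acetate and 24.7, 28.9 and 46.4 with acetate at 48 h. At 64 h these were 5.59, 5.21 and 6.35 without and 101, 82.9 and 65.7 with acetate, and at 88 h 7.52, 5.51 and 5.95 without and 30.3, 24.4 and 22.0 with acetate. The acetate level was highest at 64 h, and the level at 88 h was back near that at 48 h. High nitrogen gave 4.90, 4.76 and 5.45 without and 34.7, 47.3 and 36.1 with acetate at 48 h, and 5.04, 10.1 and 6.49 without and 110.3, 173 and 151 with it at 64 h. At 88 h the values were 8.84, 12.4 and 10.3 without and 74.0, 57.3 and 77.7 with acetate. Here too the acetate libraries were highest at 64 h, and in no pair did the groups overlap.

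mRNA_919 (protein 9287; scaffold 1, 2192735 to 2195602, minus strand; 10 exons) combined a high ratio with a high level. In low nitrogen it had 504, 511 and 498 TMM-CPM without acetate and 2678, 2607 and 2996 with acetate at 48 h. At 64 h the values were 455, 359.9 and 348 without and 6126, 5045 and 4198 with acetate, and at 88 h 153, 164 and 224 without and 2101, 2235 and 2203 with acetate. With the constant added to the means, the ratio was highest of all members in low nitrogen at 64 h (13.2) and 88 h (12.0). These ranks depend on that constant. In high nitrogen the level was 108, 106 and 91.6 without and 1409, 1436 and 2029 with acetate at 48 h, and 66.3, 64.1 and 66.4 without and 1894, 1973 and 2054 with it at 64 h. At 88 h it was 34.8, 40.3 and 33.2 without acetate and 143, 102 and 107 with acetate. The acetate cultures in high nitrogen were far lower at 88 h, and the ratio there was 3.19 against 29.6 at 64 h.

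**Figure D2:**
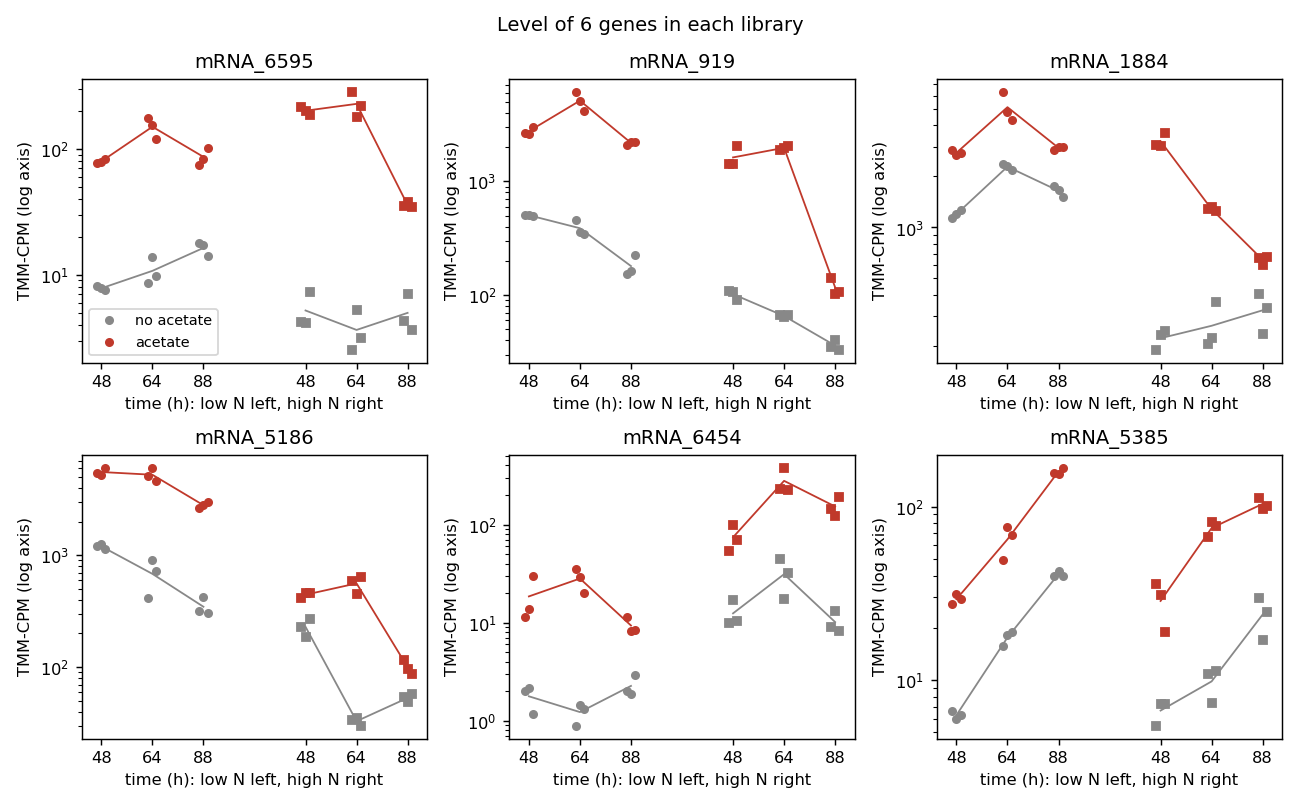
Each panel plots 1 of 6 genes by library, with time in hours on the horizontal axis (low nitrogen left, high nitrogen right) and TMM-CPM on a log axis; points are libraries, lines join group means. In all 6 panels the acetate points lie above the points without acetate at the same time and medium, while the direction of the nitrogen and time differences varies from gene to gene.

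The largest ratio of any member in any pair was that of mRNA_5462 (protein 13830; scaffold 5, 148438 to 149863, minus strand) in high nitrogen at 48 h. Its libraries there held 8.50, 7.11 and 7.53 TMM-CPM without acetate and 482, 421 and 404 with acetate. The ratio was 50.1 with the constant added to the means. At 64 h the values were 18.2, 19.1 and 23.9 without and 407, 248 and 304 with acetate, and at 88 h 28.7, 17.6 and 25.1 without and 59.9, 54.4 and 56.7 with acetate. The level with acetate came down and the level without it went up between 48 and 88 h, so that the ratio was 2.34 at the end. Low nitrogen gave 9.45, 9.02 and 9.61 without and 47.7, 39.1 and 48.0 with acetate at 48 h, and 12.6, 13.2 and 7.67 without and 17.4, 23.6 and 28.7 with it at 88 h. The acetate libraries of low nitrogen were far below those of high nitrogen at 48 h. The first rank of mRNA_5462 depends on the constant added to the means. In high nitrogen at 48 h its means were 7.71 TMM-CPM without and 436 with acetate. Those of mRNA_3045 were 0.216 and 32.2, and those of mRNA_1346 at 64 h were 0.184 and 18.4. Both rises were larger in proportion, but these means without acetate rest on 19 and 15 counts.

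mRNA_1570 (protein 9938; scaffold 11, 617747 to 619889, minus strand) had the highest ratio in low nitrogen at 48 h, 11.8. Its libraries held 17.9, 21.4 and 14.5 TMM-CPM without acetate and 168, 211 and 287 with it at that time. At 88 h they held 45.9, 36.9 and 87.7 without and 297, 260.0 and 259 with acetate. Replicate 3 without acetate at 88 h was the highest of its group, and the acetate libraries were all still above it. In high nitrogen the level with acetate was 246, 219 and 348 after 48 h, 111, 127 and 119.9 after 64 h and 49.5, 45.7 and 49.1 after 88 h. Without acetate it was 15.9, 15.7 and 28.1 after 48 h, 18.6, 20.1 and 18.8 after 64 h and 16.1, 27.3 and 18.2 after 88 h, so that only the acetate libraries differed much with time.

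mRNA_6981 (protein 15349; scaffold 7, 590905 to 593177, minus strand; 11 exons) had a ratio of 11.0 in low nitrogen at 88 h and of 2.00 in high nitrogen at the same time. Its low-nitrogen libraries at 88 h held 6.15, 5.33 and 6.50 TMM-CPM without acetate and 75.5, 66.4 and 85.3 with it. Those of high nitrogen held 21.5, 28.8 and 26.7 without and 55.3, 54.8 and 47.1 with acetate. The acetate libraries of low nitrogen were above those of high nitrogen, while the libraries without acetate had the opposite order. mRNA_6454 (protein 14822; scaffold 6, 828916 to 829758, plus strand; coding length 663 bp) had the highest ratio in high nitrogen at 88 h, 13.8, with 9.02, 13.2 and 8.20 TMM-CPM without acetate and 144, 122 and 192 with it. Its exons overlap those of a gene on the opposite strand by 260 bp, and since the strand setting of the counting is not stated, reads of the partner may be among its counts.

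A further 4 genes mark the edge of the threshold. mRNA_4100 (protein 12468; scaffold 2, 1360647 to 1362471, plus strand) was just inside, with a smallest ratio of 1.54 in low nitrogen at 64 h, where it had 58.4, 72.8 and 71.2 TMM-CPM without acetate and 105, 108 and 98.8 with it. mRNA_1446 (protein 9814; scaffold 11, 302894 to 307054, plus strand) had a smallest ratio of 1.52 in high nitrogen at 48 h, from 424, 394 and 388 without and 562, 579.8 and 693 with acetate. These values do not overlap but lie close together. mRNA_6877 (protein 15245; scaffold 7, 333578 to 335864, plus strand) and mRNA_4955 (protein 13323; scaffold 3, 1392767 to 1398186, plus strand) were just outside, each with a smallest ratio of 1.49, in high nitrogen at 64 h and in low nitrogen at 48 h.

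Levels differed between members far more than ratios did. On a scale of TMM-CPM per kb of exon, the mean of the 18 acetate libraries ran from 10.2 to 4191 with a median of 140.1, and that of the 18 libraries without acetate from 0.394 to 1556 with a median of 41.1. Over all genes the medians were 29.8 and 29.9. mRNA_1884 (protein 10252; scaffold 12, 432578 to 433282, plus strand; coding length 636 bp) was highest at 4191 per kb with acetate and 1556 without, and mRNA_5186 (protein 13554; scaffold 4, 101538 to 103195, plus strand) was next at 2382 and 413. The lowest were mRNA_5180 (protein 13548; scaffold 4, 87692 to 90433, minus strand), at 11.1 and 0.923, and mRNA_1346 (protein 9714; scaffold 11, 50487 to 51327, minus strand), at 10.2 and 0.394.

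mRNA_1884 had 1141, 1193 and 1260.1 TMM-CPM without acetate in low nitrogen at 48 h and 2849, 2659.9 and 2762 with it. At 64 h it had 2379, 2294 and 2181 without and 6318, 4774 and 4294 with acetate, and at 88 h 1751, 1670.0 and 1517 without and 2876, 3001 and 2974 with acetate. This gene was thus abundant in low nitrogen even without acetate. In high nitrogen without acetate it had 189.9, 233 and 243 after 48 h, 205, 222 and 363 after 64 h and 406, 234 and 334 after 88 h. With acetate it had 3058, 3023 and 3616 after 48 h, 1279, 1317 and 1250.5 after 64 h and 663, 604 and 666 after 88 h. Only at 48 h did the high-nitrogen acetate libraries exceed those of low nitrogen, and the ratio in high nitrogen was 14.5 then and 1.98 at 88 h.

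At the other end, mRNA_1346 was close to the floor without acetate. Its libraries held 0.582, 0.356 and 0.589 TMM-CPM without acetate in low nitrogen after 48 h, 0.105, 0.0561 and 0.265 after 64 h and 0.186, 0.292 and 0.274 after 88 h. The 64 h group rests on 2, 1 and 7 counts. With acetate the same medium gave 4.37, 4.57 and 5.66, then 5.95, 5.01 and 2.61, then 1.03, 1.59 and 3.28. In high nitrogen the gene had 0.221, 0.293 and 0.422 without acetate at 48 h and 10.5, 10.4 and 16.0 with it, and 0.184, 0.221 and 0.146 without and 23.0, 14.6 and 17.7 with acetate at 64 h. It was present at above 1 TMM-CPM in every acetate library and in no library without acetate. Since 1 is added to the means, ratios of such genes are understated, and with 5 added instead mRNA_1346, mRNA_5180 and 4 other members would not meet the rule.

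The members together held a small part of each library. In low nitrogen without acetate they took 0.521%, 0.530% and 0.530% of counts at 48 h (lowest, median and highest library), 0.485%, 0.500% and 0.519% after 64 h, and 0.331%, 0.333% and 0.339% after 88 h. With acetate these shares were 1.89%, 1.92% and 2.13% after 48 h, 1.52%, 1.75% and 1.94% after 64 h, and 1.06%, 1.11% and 1.14% after 88 h. In high nitrogen without acetate they were 0.386%, 0.403% and 0.404% after 48 h, 0.230%, 0.309% and 0.349% after 64 h, and 0.295%, 0.357% and 0.362% after 88 h. High-nitrogen acetate libraries had 1.60%, 1.61% and 1.99% after 48 h, 1.15%, 1.23% and 1.24% after 64 h, and 0.568%, 0.575% and 0.577% after 88 h. The median share was lower at each later time in both acetate arms, and the high-nitrogen acetate libraries of 88 h came nearest to the libraries without acetate.

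**Figure D3:**
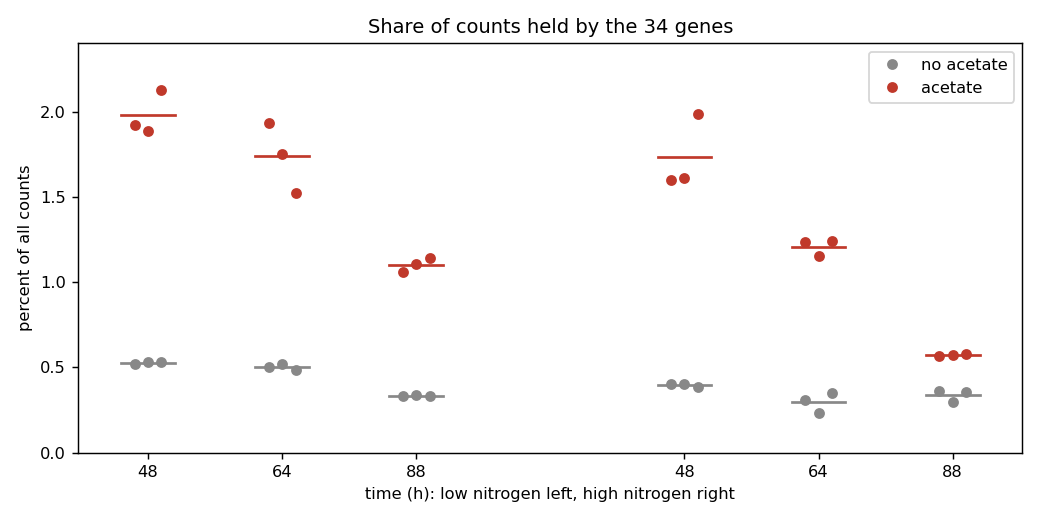
Each point is a library, the vertical axis gives the percent of all its counts that fall on the 34 genes, the horizontal axis gives time in hours with low nitrogen left and high nitrogen right, and bars are group means. Acetate libraries lie above those without acetate in all 6 pairs, and the gap is narrowest in high nitrogen at 88 h, where 0.568% is the lowest acetate library and 0.362% the highest without acetate.

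How the acetate ratio itself varied between media and times is part of the contrast that chose the members and is described without a test. The geometric mean ratio over the 3 times was higher in high than in low nitrogen for 26 of 34 members, and the median factor over all 34 was 1.23. The factor was at least 2 for 7. The extremes were mRNA_5180, with a ratio 3.60 times as high in high as in low nitrogen, and mRNA_6878 (protein 15246; scaffold 7, 335906 to 338112, minus strand), with a ratio 0.552 times as high. The levels of mRNA_5180 in low nitrogen were low, so its rank depends on the 1 added to the means, and mRNA_5462 was next at 3.53. In mRNA_5180 the high-nitrogen acetate libraries of 48 h held 95.7, 94.9 and 131 TMM-CPM against 3.03, 3.29 and 3.65 without acetate, and those of low nitrogen 5.18, 4.97 and 5.02 against 1.20, 1.66 and 0.930. In mRNA_6878 the high-nitrogen values at that time were 110.0, 114 and 209 with acetate against 94.3, 107 and 75.7, and the low-nitrogen values 299, 286 and 334 against 54.9, 47.3 and 59.4. Replicate 3 of the high-nitrogen acetate group, 1 of the 4 libraries apart, was the highest of its group in both genes, and without it mRNA_6878 no longer met the rule.

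By medium the ratio was higher in high nitrogen for 23 members after 48 h, 25 after 64 h and 16 after 88 h. The ratio was lower at 88 than at 48 h in 21 members in low nitrogen and 26 in high nitrogen. The ratio of the 88 h to the 48 h value, over both media, ran from 0.145 in mRNA_5462 to 1.95 in mRNA_1216, with a median of 0.669. mRNA_6698 (protein 15066; scaffold 6, 1476138 to 1478780, minus strand; 12 exons) was next to the low end at 0.232. It had 34.9, 44.9 and 30.7 TMM-CPM without and 749, 705 and 977 with acetate after 48 h of high nitrogen, and 106, 129.7 and 94.5 without and 203, 181 and 195 with it at 88 h. As in mRNA_5462, the acetate libraries were lower and those without acetate higher at the later time. mRNA_1216 (protein 9584; scaffold 10, 669841 to 671577, plus strand) and mRNA_2981 (protein 11349; scaffold 16, 3375 to 5505, plus strand) were at the other end, with ratios in low nitrogen of 2.18 and 2.15 at 48 h and of 5.86 and 5.56 at 88 h. Their ratios in high nitrogen differed less, at 2.26 and 2.08 at 48 h and 3.18 and 2.18 at 88 h. For 15 members the largest ratio of all 6 was in high nitrogen at 48 h, and for 11 the smallest was in high nitrogen at 88 h.

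The effect of nitrogen was tested with the acetate and no-acetate groups averaged on the log2 scale with equal weight. An acetate ratio that is the same in the groups compared cancels in this comparison. A ratio that differs between media or times does not cancel and enters the nitrogen and time effects in part. The geometric mean ratio was higher in high nitrogen for 26 of 34 members, and over both media it was lower at 88 than at 48 h for 24. How much this adds to the counts of members called was not tested. The test was edgeR's quasi-likelihood test fitted to all 36 libraries, with Benjamini-Hochberg adjustment over the 8314 genes that passed the filter, and a gene was called at adjusted p below 0.05. The members did not share a direction. At 48 h 9 members were higher in low than in high nitrogen and 16 lower, against a background of 34.7% and 36.3% of all genes tested. At 64 h 15 were higher and 18 lower (background 40.2% and 41%), and at 88 h 13 were higher and 17 lower (42.2% and 40.7%). With library totals alone in place of TMM, the numbers higher and lower were 8 and 17, 10 and 18, and 11 and 21 at the 3 times. The number not called was 9, 1 and 4. With a change of at least 2-fold, 5 members were higher and 10 lower at 48 h (background 6.47% and 8.23%), 9 and 10 at 64 h (13.8% and 12.5%), and 9 and 12 at 88 h (14% and 16.4%).

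The members' median log2 fold change, low over high nitrogen, was -0.27, -0.59 and -0.36 at the 3 times, and that of all genes between -0.01 and 0.02. The median absolute change was 0.75, 1.23 and 1.34 among members and 0.37, 0.57 and 0.62 among all genes. By gene, 7 members were called higher in low nitrogen at all 3 times, which is 20.6% of members and compares with 19.3% of all genes tested. Another 14 were called lower at all 3 times, 41.2% against 19.7%. Both directions occurred in 3 members, 8.82% against 20.1%.

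**Figure D4:**
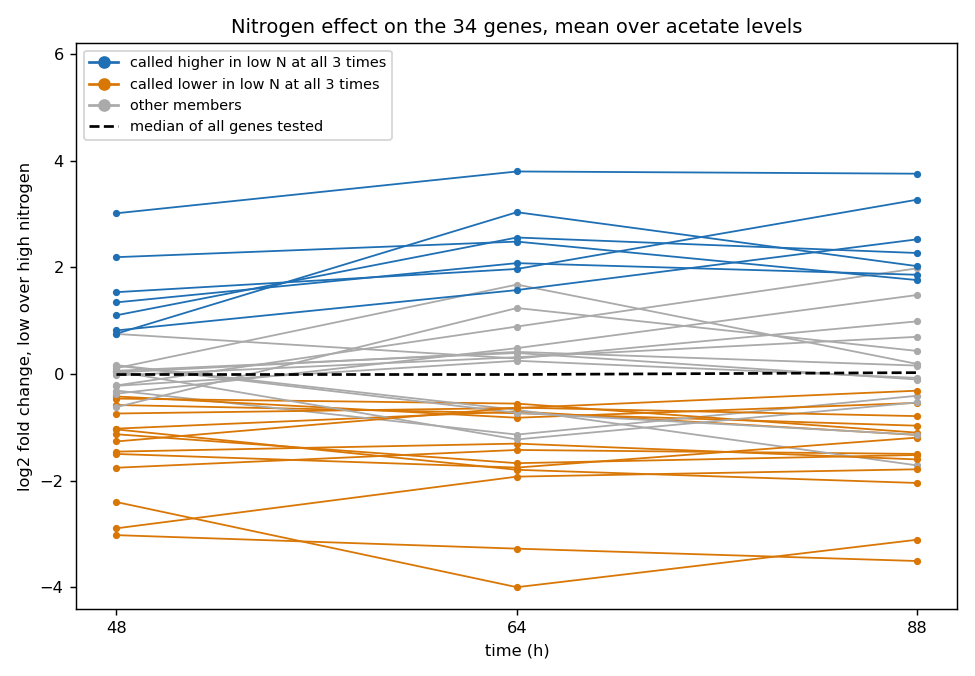
Each line is 1 of the 34 genes, the vertical axis gives the log2 fold change of low over high nitrogen averaged over acetate levels, the horizontal axis time in hours, and the dashed line is the median of all genes tested. The 7 genes called higher and the 14 called lower at all 3 times have their own colours and lie on either side of 0 by definition. Values of the members run from -4.00 to 3.80 at 64 h.

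The highest nitrogen effect at all 3 times was that of mRNA_5186. In low nitrogen it had 1211, 1249.6 and 1139 TMM-CPM without acetate and 5385, 5178 and 6038 with acetate at 48 h, and 414, 913 and 717 without and 5108, 6005 and 4579 with it at 64 h. At 88 h it had 317, 419 and 303 without and 2614, 2789 and 2988 with acetate. The high-nitrogen values were 230.1, 187 and 271 without and 414, 458 and 459 with acetate after 48 h, 33.4, 35.3 and 30.0 without and 584, 453 and 644 with acetate after 64 h, and 53.8, 48.4 and 57.1 without and 117, 97.1 and 86.6 with acetate after 88 h. At 48 and 88 h every low-nitrogen library lay above every high-nitrogen library, with or without acetate. The log2 fold change was 3.01 (SE 0.14, adjusted p = 1.02e-17) after 48 h, 3.80 (SE 0.15, adjusted p = 5.83e-20) after 64 h and 3.76 (SE 0.15, adjusted p = 5.41e-20) after 88 h.

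mRNA_919, whose values stand above, was the next highest at 88 h, with a log2 difference of 3.27 (SE 0.12, adjusted p = 7.21e-21), and every low-nitrogen library then lay above every high-nitrogen library. At 64 h the next highest was mRNA_4297 (protein 12665; scaffold 2, 1829506 to 1831349, plus strand). It had 507, 736 and 665 TMM-CPM without and 1609.8, 1232 and 875 with acetate in low nitrogen, and 78.9, 39.4 and 69.7 without and 179, 197 and 186 with acetate in high nitrogen. The media did not overlap at either acetate level, and the log2 fold change was 3.03 (SE 0.15, adjusted p = 2.11e-17). Its exons share 135 bp with a neighbour on the same strand, so part of its count is uncertain.

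mRNA_3045 (protein 11413; scaffold 16, 182948 to 183820, minus strand) was the next highest at 48 h. It had 7.60, 7.24 and 5.61 TMM-CPM without and 19.1, 19.8 and 25.9 with acetate in low nitrogen, and 0.158, 0.261 and 0.230 without and 32.8, 27.3 and 36.4 with acetate in high nitrogen. The no-acetate libraries of high nitrogen rest on 5, 8 and 6 counts. Low nitrogen was far higher without acetate but lower with it. The log2 fold change over both acetate levels was 2.19 (SE 0.16, adjusted p = 4.24e-13), although the mean level over the 6 libraries was 14.2 TMM-CPM in low and 16.2 in high nitrogen.

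The members lower in low nitrogen were led by mRNA_2981. It had 31.2, 30.7 and 34.8 TMM-CPM without and 75.4, 72.1 and 63.7 with acetate in low nitrogen after 48 h, 14.6, 19.0 and 18.4 without and 62.5, 56.5 and 55.9 with acetate after 64 h, and 11.8, 9.56 and 8.53 without and 57.7, 50.1 and 72.1 with acetate after 88 h. In high nitrogen the values were 293, 293 and 218 without and 556, 522 and 599 with acetate after 48 h, 176, 94.9 and 214 without and 607, 530.1 and 616 with acetate after 64 h, and 204, 152 and 206 without and 404, 451 and 371 with acetate after 88 h. At each time every high-nitrogen library, even without acetate, lay above every low-nitrogen library with acetate. The log2 fold change was -3.02 (SE 0.14, adjusted p = 7.48e-18) after 48 h, -3.28 (SE 0.14, adjusted p = 1.06e-18) after 64 h and -3.51 (SE 0.14, adjusted p = 2.05e-19) after 88 h.

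mRNA_6454 had the lowest value at 64 h. In low nitrogen its libraries held 0.889, 1.46 and 1.32 TMM-CPM without and 35.6, 28.9 and 19.9 with acetate, and in high nitrogen 44.0, 17.5 and 32.0 without and 231, 379 and 227 with acetate. The media were separate at each acetate level, but low nitrogen with acetate overlapped high nitrogen without it. The log2 fold change was -4.00 (SE 0.28, adjusted p = 8.7e-14) at 64 h and -3.11 (SE 0.27, adjusted p = 7.59e-12) at 88 h. mRNA_5180, whose 48 h values stand above, gave -2.89 (SE 0.15, adjusted p = 1.88e-16) at 48 h, with its low-nitrogen acetate libraries only slightly above the high-nitrogen libraries without acetate.

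The change from 48 to 88 h was tested in the same way, over both acetate levels, and an acetate ratio that differs between times does not cancel here either. In low nitrogen 5 members were higher at 88 h and 21 lower, against a background of 44.6% and 37.3% of all genes tested; with library totals alone the numbers were 2 and 25. In high nitrogen 3 were higher and 23 lower (background 32.9% and 33.1%). The median log2 fold change of the members was -0.63 in low and -0.85 in high nitrogen, and that of all genes 0.09 and 0.00. At 2-fold or more, 1 member was higher and 11 lower in low nitrogen (background 13.8% and 13.2%), and 1 was higher and 16 lower in high nitrogen (7.05% and 4.13%). In both media 17 members were called lower at 88 h, 50% against 17.7% of all genes, and 1 was called higher in both, 2.94% against 20.1%. As the protocol reads, 3 colonies with 4 flasks each would give 12 flasks for 36 libraries, so the 3 times would be repeated samples of the same flasks. The labels do not link libraries to flasks, and the test treated all libraries as independent.

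By arm, and with no test since each arm carries the acetate contrast, 22 of 34 members were lower at 88 than at 48 h in low nitrogen without acetate and 25 with acetate. The numbers in high nitrogen were 19 without and 28 with acetate. The median log2 ratio of 88 over 48 h was -0.50 and -0.64 in low nitrogen without and with acetate, and -0.08 and -1.49 in high nitrogen. Over all genes these medians lay between -0.01 and 0.07.

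**Figure D5:**
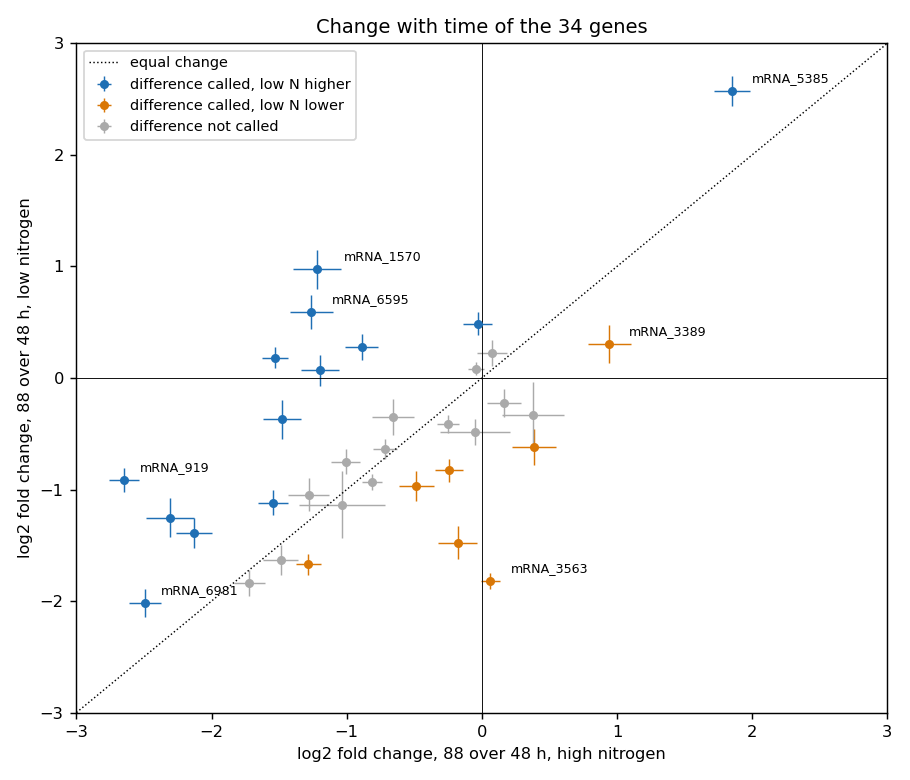
Each point is 1 of the 34 genes, placed by its log2 fold change of 88 over 48 h in high nitrogen (horizontal) and in low nitrogen (vertical), both averaged over acetate levels, with bars of 1 SE; colour marks whether the difference between the media was called. Most points lie below and left of 0, with mRNA_5385 the farthest toward the upper right at 2.57 in low and 1.85 in high nitrogen.

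The single member called higher at 88 h in both media was mRNA_5385 (protein 13753; scaffold 4, 619220 to 620866, minus strand). In low nitrogen it had 6.62, 5.97 and 6.26 TMM-CPM without and 27.3, 31.2 and 29.3 with acetate after 48 h, 15.7, 18.3 and 18.8 without and 49.3, 76.0 and 68.8 with acetate after 64 h, and 39.9, 42.6 and 40.0 without and 156, 154 and 167 with acetate after 88 h. In high nitrogen it had 5.47, 7.24 and 7.33 without and 35.8, 31.1 and 18.8 with acetate after 48 h, 10.8, 7.35 and 11.3 without and 67.2, 81.2 and 77.1 with acetate after 64 h, and 29.8, 17.1 and 24.7 without and 113, 97.3 and 101 with acetate after 88 h. The level was higher at each later time in all 4 arms, and the 48 and 88 h libraries did not overlap in any arm. The log2 fold change was 2.57 (SE 0.14, adjusted p = 1.37e-16) in low and 1.85 (SE 0.13, adjusted p = 9.26e-13) in high nitrogen. Its ratio of acetate to no acetate was 3.53 to 4.21 in 5 pairs and 7.03 in high nitrogen at 64 h. Its exons overlap an opposite-strand gene by 318 bp, with the same uncertainty as for mRNA_6454.

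mRNA_1570 was the next highest in low nitrogen, at 0.98 (SE 0.18, adjusted p = 9.79e-06) on the log2 scale. In high nitrogen the next highest was mRNA_3389, at 0.94 (SE 0.16, adjusted p = 7.08e-06), with its libraries at 88 h above those at 48 h at both acetate levels.

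Of the members that fell, mRNA_6981 was among the lowest in both media. In low nitrogen it had 38.0, 39.8 and 40.5 TMM-CPM without and 153, 172 and 234 with acetate at 48 h, against the 88 h values given above. In high nitrogen its 48 h values were 92.3, 80.1 and 91.8 without and 488, 462 and 497 with acetate. All 4 arms were lower at 88 h without overlap. The log2 fold change was -2.02 (SE 0.12, adjusted p = 3.77e-15) in low and -2.49 (SE 0.12, adjusted p = 1.61e-16) in high nitrogen. mRNA_1216 went from 118, 131 and 140.4 without and 265, 274 and 312 with acetate in low nitrogen at 48 h to 25.6, 18.5 and 21.3 without and 134, 119.7 and 145 with acetate at 88 h. Both arms were lower without overlap, and the log2 fold change was -1.84 (SE 0.12, adjusted p = 1.13e-14). In high nitrogen mRNA_919 had the lowest value, -2.65 (SE 0.11, adjusted p = 2.32e-17).

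The difference between the time effects of the 2 media was also tested over both acetate levels. An acetate ratio whose change with time differs between the media does not cancel in it. The difference was called for 20 of 34 members. In 13 the change was higher in low than in high nitrogen and in 7 lower, against a background of 38% and 33.3% of all genes tested; with library totals alone the numbers were 10 and 14. A difference of at least 2-fold was found in 8 and 3 members (background 11.2% and 13.2%). The 4 genes at the ends of this range moved in different ways.

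In mRNA_1570, with values given above, the no-acetate libraries of low nitrogen were higher at 88 than at 48 h, while its acetate libraries overlapped between these times. In high nitrogen the acetate libraries were lower at 88 h. The difference was 2.20 (SE 0.25, adjusted p = 6.82e-09) on the log2 scale. mRNA_6595 gave 1.85 (SE 0.22, adjusted p = 1.45e-08), from no-acetate libraries that were higher at 88 h in low nitrogen only and acetate libraries that were lower at 88 h in high nitrogen only.

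mRNA_3563 (protein 11931; scaffold 2, 61910 to 63127, minus strand; 2 exons) had the opposite pattern. In low nitrogen it had 24.6, 22.8 and 22.9 TMM-CPM without and 134, 141 and 127 with acetate at 48 h, and 6.52, 7.08 and 5.83 without and 37.6, 38.8 and 39.8 with acetate at 88 h. In high nitrogen it had 19.7, 25.2 and 22.7 without and 103, 99.5 and 129.9 with acetate at 48 h, and 25.8, 30.1 and 27.3 without and 98.9, 98.4 and 97.7 with acetate at 88 h. It was lower at 88 h in both low-nitrogen arms and close to its 48 h level in high nitrogen, and the difference was -1.88 (SE 0.10, adjusted p = 9.13e-16). mRNA_6878 gave -1.30 (SE 0.20, adjusted p = 1.58e-06). At 88 h it had 30.7, 27.4 and 33.8 without and 65.0, 76.6 and 67.9 with acetate in low nitrogen, and 65.5, 58.9 and 71.7 without and 148, 161 and 167 with acetate in high nitrogen, and the low-nitrogen acetate libraries were the furthest below their values at 48 h.

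The 13 members not described one by one had smallest acetate ratios between 1.56 and 2.23 and levels with acetate between 20.6 and 655 TMM-CPM per kb. Their log2 fold changes of low over high nitrogen were -1.76 to 1.34 at 48 h, -1.80 to 2.08 at 64 h and -2.04 to 2.53 at 88 h. From 48 to 88 h they ran from -1.67 to 0.49 in low nitrogen and from -2.30 to 0.39 in high. In each comparison these genes lay on both sides of 0, as the members described above did.

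The members lay on 14 of the 21 scaffolds, and no 2 of them were adjacent. Scaffolds 4 and 17 held 3 members each, 8.82% against 2.98% and 2.73% of all genes. Scaffold 16 held 2, 5.88% against 2.23%. Scaffold 3 held 1, 2.94% against 9.21%. Whether these shares differ from those of the catalogue was not tested. The closest pairs were mRNA_3389 and mRNA_3391 on scaffold 17, with 1 gene and 4615 bp between them, and mRNA_5180 and mRNA_5186 on scaffold 4, with 5 genes and 11104 bp between them. mRNA_5180 was lower and mRNA_5186 higher in low nitrogen, so this pair did not share a nitrogen response. mRNA_6877, just outside the threshold, adjoins the member mRNA_6878 on the opposite strand at 41 bp.

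Gene structure is given beside that of the whole catalogue, without a test. The members had a median of 6 exons (2 to 13) against 5, a coding length of 1141.5 bp (468 to 3102) against 1218 bp, and 464 bp of intron against 317 bp. None had a single exon, against 5.08% of all genes. A 5′ untranslated region was annotated in 47.1% of members and 63.8% of genes, and a 3′ one in 47.1% and 64.8%. Exons overlapped a gene on the same strand in 4 members (11.8% against 11.1%) and on the opposite strand in 6 (17.6% against 14.3%), and the counts of these genes may hold reads of their partners. The gene upstream lay head to head with the member in 17 (50% against 55.4%).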

How the data were processed

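RNA was measured in 36 libraries of R. toruloides IFO0880 (12 groups of 3), prepared with a stranded mRNA kit and sequenced paired-end, per the labels' protocols. The values deposited by the authors are whole-number counts per mRNA of the gene catalogue of assembly version 4. The sample description calls them CPM, but their totals differ between libraries, so they were used as raw counts. The submitters' processing notes name STAR 2.7.10a, Trimmomatic 0.39, featureCounts, Subread 2.0.4, FastQC 0.11.9 and MultiQC 1.9. Their roles, the strand setting and the treatment of multi-mapping reads are not given in the sources used here. Other deposited values, the gene positions and exons, come from the catalogue file.

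The analysis used edgeR 4.0.16 in R 4.3.3, limma 3.58.1, and DESeq2 1.42.0 as an alternative. Libraries were scaled by TMM (factors 0.743 to 1.32). The quasi-likelihood test used 1 mean per group over all 36 libraries after edgeR's filter on low counts, with Benjamini-Hochberg adjustment within each of 6 comparisons. The SE is the absolute log2 fold change divided by the square root of F. CPM per kb divides by exon length. The fit was tried on simulated counts with changes planted for nitrogen at 48 h only, and the member rule on planted means. The other comparisons were not tried on simulated counts. Floors of 3 counts cover counting error only.

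Genes named are, by rule, the 2 members with the highest acetate ratio in each pair and the 2 with the highest smallest ratio. The rule also takes the 2 genes on each side of the threshold and the 2 members at each end of level. It further takes the 2 at each end of the change in ratio between media and between times, and the 2 called members at each end of each tested comparison. The members, lists and comparisons were chosen with earlier results of these data known. Replicates are biological per the labels. Since no label ties replicate numbers to colonies, the tests had no block. Replicate pairs differed beyond counting noise (chi-square per degree of freedom 8.33 to 156), so no library was counted as a repeat of another. Alternatives changed the scaling, the filter, the test, the block, the samples fitted, the constant added, the ratio and the libraries used.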

Additional observations from a re-analysis of the deposited data

Results flagged for a closer look

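The difference between the time effects in low and high nitrogen, over both acetate levels, was called for 20 of the 34 members. An acetate ratio whose change from 48 to 88 h differs between the media enters this difference in part. The 20 called were 58.8% of the members, and 71.3% of all genes tested were called. With library totals alone in place of TMM, 24 of the 34 members and 70.4% of all genes were called, so the lower share of members depends on the scaling. At the ends of the range, the log2 difference was 2.20 for mRNA_1570 and 1.85 for mRNA_6595, where the change was higher in low nitrogen. It was -1.88 for mRNA_3563 and -1.30 for mRNA_6878, where it was lower in low nitrogen. When each library was left out in turn, these values ran from 1.97 to 2.33, from 1.70 to 2.01, from -1.95 to -1.84 and from -1.48 to -1.22. Single values of a gene were not tested for outliers in groups of 3.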

How the results depend on the processing

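The number of genes that meet the rule was 34. It was 21 with library totals alone, 13 with a ratio of at least 2, and 21 when the lowest acetate library had to exceed the highest without acetate 1.5-fold in every pair. It was 35 with edgeR's relative log expression (RLE) factors in place of TMM, and 43 with 0.1 and 28 with 5 added to the means. When each library was left out in turn it was 32 to 37, with 29 members kept throughout. The 5 lost in some were mRNA_22, mRNA_546, mRNA_1446, mRNA_4100 and mRNA_6878. The cause of these differences was not tested.

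The members called for nitrogen numbered 25, 33 and 30 at 48, 64 and 88 h, those called for time 26 in low and 26 in high nitrogen, and those for the difference 20. Among all genes tested 71.1%, 81.2%, 82.9%, 81.8%, 66% and 71.3% were called, against 73.5%, 97.1%, 88.2%, 76.5%, 76.5% and 58.8% of members. Leaving out each library gave 23 to 26, 31 to 34, 29 to 31, 24 to 28, 24 to 27 and 20 to 23, and the other alternatives 25 to 27, 28 to 33, 30 to 32, 26 to 30, 25 to 27 and 20 to 24. With the replicate number as a block the counts were 25, 33, 30, 26, 26 and 21. The number may mark a colony, which would pair libraries across media, but the labels do not say so. Libraries with the same number had deviations from their group means with a median correlation of 0.00683 (38 of 198 pairs over 0.1), and 16 of 36 libraries correlated best with their own number. This does not show that they are unpaired. For the 2 called members at each end of each tested comparison, the log2 fold change was refitted in 20 settings, or 32 for the difference. All 528 of these values kept their direction and call. These genes were picked for their large changes, so this was largely fixed in advance and says little about the other members. Scaling by library totals alone shifted the all-gene median log2 change to -0.38 and -0.33 for nitrogen at 64 and 88 h, -0.21 for time in low nitrogen and -0.25 for the difference.

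Depth limits mRNA_1346 without acetate, and mRNA_3045 in high nitrogen without acetate at 48 h, which rest on few counts. Without gene names or a genome sequence, functions, paralogs and promoters were not analysed here.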

Other observations

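The genes next to the members were looked at after the values were seen, and no test was made. The 67 neighbours that are not members had a median geometric mean acetate ratio of 1.06, and 12 of them (17.9%) had a ratio of at least 1.5 in 3 or more pairs, against 11.3% of the 8456 genes that are not members. Of the 34 genes upstream of a member, 9 (26.5%) passed in 3 or more pairs and 7 (20.6%) had a geometric mean of at least 1.5. Of the 33 distinct genes downstream, 3 (9.09%) and 1 (3.03%) did so, and among all genes that are not members 7.07% had a geometric mean of at least 1.5. The 2 neighbours with the highest geometric means were mRNA_4408, upstream of mRNA_4409 on the same strand, at 2.19, and mRNA_3388, upstream of mRNA_3389 on the opposite strand, at 2.08. mRNA_4408 and mRNA_4409 share 40 bp of exon, so reads of either may be counted for the other.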
